A study of Mus musculus with 27 samples.

Results

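Sterol and fatty acid synthesis was followed through 31 genes in sorted nuclei of the mouse motor cortex. The genes were taken from the deposited table by symbol, from a list that covers the mevalonate pathway, the later steps of cholesterol synthesis, the SREBP control system, 1 sterol transfer protein and fatty acid synthesis. All 31 were found among the 39338 rows of the table, and all 31 were among the 21768 genes with enough counts to be tested. The list itself sets no limit on expression.

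C9-BACexp mice carry a bacterial artificial chromosome with the human C9ORF72 gene and its hexanucleotide repeat expansion, and C57BL/6J littermates lack it. There were 27 mice with 1 library each, prepared from motor cortex nuclei sorted as EGFP-KASH+. EGFP-KASH is a fluorescent protein anchored to the nuclear envelope, so that transduced nuclei can be sorted. The NTG and crRNA-13 mice were injected at 6 weeks of age with AAV-PHP.eB vectors for a Cas13 effector with its crRNA and for EGFP-KASH, and nuclei were sorted 2 months later. The crRNA-13 guide directs RfxCas13d-N2V8, a high-fidelity form of the RNA-cutting enzyme RfxCas13d, to exon 1a of the human C9ORF72 RNA. The effector was driven by the CAG promoter, which is active in many cell types. NTG is a non-targeted crRNA, for which the labels name RfxCas13d and the study's methods RfxCas13d-N2V8 as the effector. Mice with EGFP-KASH only received no Cas13, and their age at injection is not stated in the sources used here. There were 3, 6 and 6 C9-BACexp mice with EGFP-KASH only, NTG and crRNA-13, and 4, 5 and 3 C57BL/6J mice with the same treatments. All groups shared the EGFP-KASH vector and the sort.

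Cells make cholesterol from acetyl-CoA through mevalonate, squalene and lanosterol. The transcription factors SREBP-1 and SREBP-2, encoded by Srebf1 and Srebf2, switch on these genes, SREBP-1 mainly those of fatty acid synthesis and SREBP-2 mainly those of sterol synthesis. Scap escorts them out of the endoplasmic reticulum when sterols are low, and Insig1 and Insig2 hold Scap back when sterols are high. The brain makes its own cholesterol, because the blood-brain barrier keeps out lipoprotein cholesterol, and oligodendrocytes, which wrap axons in myelin, and astrocytes are major producers.

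Among 25 genes with a promoter sequence in the RefSeq table used (GRCm38.p6, 250 bases before to 50 after the start), 21 held the letters CCAAT on either strand, the motif of the factor NF-Y, which often binds beside SREBPs. This is 84.0% of these genes, against 41.1% of all 27025 genes with a promoter. The sterol regulatory element TCACNCCAC, searched on both strands, was in 1 of the 25, Hmgcs1, and in 1.44% of all genes. The matches are letters in a window and were not measured as binding. The Hmgcs1 element and the CCAAT letters upstream of the start of 3 genes that the test below called are shown, read along the gene's strand, with the motif in capitals (ATTGG is CCAAT on the other strand). They lie at chr13:119690204-119690232 (+) for Hmgcs1, chr5:28071186-28071210 (+) for Insig1, chr8:122443435-122443459 (-) for Mvd, and chr11:60222733-60222757 (-) and chr11:60210487-60210511 (-) for 2 of the 3 annotated starts of Srebf1.
Hmgcs1 (sterol regulatory element): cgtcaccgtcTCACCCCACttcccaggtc
Insig1 (CCAAT): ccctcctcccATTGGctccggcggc
Mvd (CCAAT): ggccagcgggCCAATcatatggcag
Srebf1, first start (CCAAT): gcgactgtctCCAATgcaagacaac
Srebf1, second start (CCAAT): gcggctgctgATTGGccatgtgcgc

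The libraries held 21508829 to 36777972 counts, with a median of 29001126. The 31 genes took 0.0947% to 0.167% of them. V3, a human transcript that starts in exon 1a, the target of crRNA-13, was listed at 0 in all C57BL/6J libraries and stood at 21 ± 8.39 CPM (counts scaled to the library's total, ± SD, n = 6) under crRNA-13 in C9-BACexp mice, at 29.1 ± 3.57 (n = 6) under NTG and at 70.5, 27.03 and 27.9 CPM in the 3 mice with EGFP-KASH only. EGFP-KASH RNA was found in all 27 libraries, at 9.42 to 109.8 CPM. A single library stood apart. In C9-BACexp EGFP-KASH-only replicate 2, V2, the human transcript that starts beyond the repeat, was listed at 0, where the other 14 C9-BACexp libraries had 30.0 CPM or more, and V3 was at the highest of these 3 values. Results of the 31 genes that move with this library are given with and without it. The labels call the cells neurons, and none of 10 neuron markers was at 0 in any library, but neither was any of 18 oligodendrocyte markers. The summed level of these 18 ranged from 459 to 2590 CPM in C57BL/6J NTG mice and from 1459 to 3327 in C9-BACexp NTG mice, from 1107 to 1964 and from 862 to 5750 with crRNA-13, and from 512 to 1939 and from 1770 to 2540 with EGFP-KASH only. In these nuclei, fewer cells of a type and less RNA per cell cannot be told apart.

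The genotypes were compared first within each treatment. A gene was called when it differed by over 1.2-fold with an adjusted p under 0.05 in the quasi-likelihood test of edgeR, fitted over all genes with 4 factors of unwanted variation. In C9-BACexp mice with NTG, 1 of the 31 genes was called, Srebf1, which was higher, where 6.6% of all genes were called in either direction and 4.01% were called higher, 2.6% lower. With crRNA-13, 1 was called, Scd2, which was higher, where 1.09% of all genes were called and 0.441% were called higher, 0.648% lower. With EGFP-KASH only, 2 were called, Insig1 and Mvd, which were both lower, where 2.86% of all genes were called and 1.27% were called lower, 1.59% higher. The median log2 difference of the 31 was 0.05 with NTG, 0.16 with crRNA-13 and −0.15 with EGFP-KASH only, beside 0.02, −0.00 and −0.03 over all genes. Of the 31, 19, 23 and 11 were above 0, beside 51.9%, 49.6% and 46.4% of all genes. Without the factors, edgeR called none of the 31 in any comparison, and 3, 1 and 5 had an unadjusted p under 0.05, as did 14.1%, 5.17% and 7.94% of all genes. With the factors these numbers were 7, 10 and 10 of the 31, beside 25.9%, 12.4% and 18.9% of all genes. Without the C9-BACexp library that stood apart, the median with EGFP-KASH only was −0.07, and 12 of the 31 were above 0, beside 50.6% of all genes. None was then called by edgeR and 6 had an unadjusted p under 0.05, beside 13.6% of all genes.

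**Figure D1:**
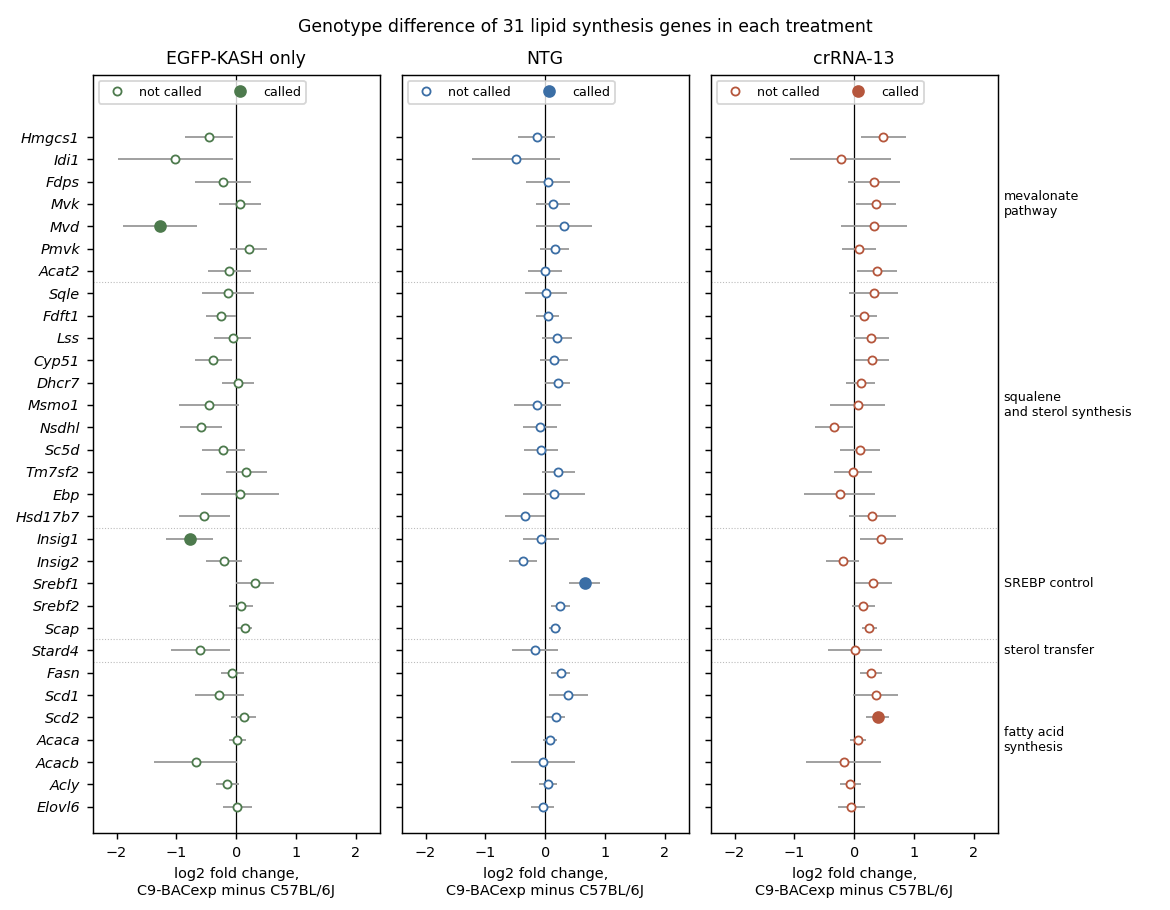
Log2 fold change between C9-BACexp and C57BL/6J mice of 31 genes, by role, within each treatment, as fitted by edgeR with 4 factors. Points are estimates, bars are 2 standard errors on each side, and filled points passed the thresholds on fold change and adjusted p. With EGFP-KASH only, Mvd (−1.28) and Insig1 (−0.78) lay furthest below 0 among the called genes; with NTG, Srebf1 lay furthest above 0 (0.66).

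The 7 genes of the mevalonate pathway carry acetyl-CoA to the isoprenoid units from which squalene is built. Mvd, mevalonate diphosphate decarboxylase (Entrez 192156; GRCm39 chr8:123160336-123170324, minus strand), had 8.15, 7.71, 4.81 and 5.37 CPM in the 4 C57BL/6J mice with EGFP-KASH only. The 3 C9-BACexp mice had 0.879, 3.78 and 4.73 CPM. All 3 were below the 4, although the highest of the 3 and the lowest of the 4 nearly met. The log2 difference was −1.28 ± 0.31 (SE), a level 0.413 times as high, at an adjusted p of 0.028 in edgeR. An exact two-sided permutation test of the log2 CPM gave p = 0.0286, the smallest that 35 splits allow. The lowest value was that of replicate 2, which stood apart in V2, and without it the difference was −0.57 (adjusted p = 0.438 in edgeR). The call for Mvd also ended without C57BL/6J replicate 2 (adjusted p = 0.0561) or 3 (0.064). In the same comparison 8 of 18 oligodendrocyte markers were called higher and 2 of 10 neuron markers lower, and their part in the result was not tested.

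With NTG the same gene had 3.02, 4.94, 7.68, 3.40 and 3.23 CPM in C57BL/6J mice and a range of 3.31 to 7.07 with a median of 5.50 in C9-BACexp mice. With crRNA-13 the values were 4.92, 6.62 and 3.60 in C57BL/6J mice and 3.28 to 11, with a median of 6.60, in C9-BACexp mice. The genotypes overlapped under both, with log2 differences for Mvd of 0.31 ± 0.24 and 0.33 ± 0.28. The 2 genotype differences of Mvd, with EGFP-KASH only and with NTG, were 1.59 ± 0.39 apart on the log2 scale (unadjusted p = 5.0e-04, adjusted p = 0.214 in edgeR), a contrast chosen after the data were seen. Without C9-BACexp EGFP-KASH-only replicate 2 the contrast of Mvd was −0.88 ± 0.39 (adjusted p = 0.694). In that contrast, with all mice, edgeR called 0 of the 31 (0% of all genes), DESeq2 called 1 and limma 0. In edgeR 6 had an unadjusted p under 0.05, beside 10.3% of all genes.

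None of the other 6 genes of the mevalonate pathway was called between the genotypes. Hmgcs1, the synthase that makes HMG-CoA, had 16.6, 27.5, 38.0 and 33.9 CPM in C57BL/6J mice with EGFP-KASH only, and 20.1, 22.9 and 18.4 CPM in C9-BACexp mice. The C9-BACexp values lay within the C57BL/6J range. Its log2 difference was −0.45 ± 0.20 with EGFP-KASH only (−0.44 without replicate 2), −0.14 ± 0.16 with NTG and 0.49 ± 0.19 with crRNA-13, with adjusted p of 0.26, 0.719 and 0.183 in edgeR. The difference with crRNA-13 and that with NTG were 0.63 ± 0.24 apart (unadjusted p = 0.016, adjusted p = 0.359). Idi1, an isomerase of the isoprenoid units, had the widest intervals of the 31 between the genotypes, with 0.759 to 6.70 CPM over all mice and differences of −1.02 ± 0.48, −0.49 ± 0.37 and −0.23 ± 0.42 in the same order of treatments. The lowest value of Idi1 was that of replicate 2, and without it the difference with EGFP-KASH only was −0.43 ± 0.53. With crRNA-13, Acat2, the thiolase that joins acetyl-CoA units, had 12 to 13.4 CPM in C57BL/6J and 13.5 to 20.8 CPM in C9-BACexp mice, which do not overlap, at a log2 difference of 0.38 ± 0.17 (adjusted p = 0.26). Mvk, mevalonate kinase, differed by 0.37 ± 0.17 there (adjusted p = 0.276). Fdps and Pmvk, a prenyl diphosphate synthase and a kinase, had differences of −0.22 to 0.33 in the 3 treatments, with adjusted p of 0.493 or more.

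The 11 genes from squalene to cholesterol held no call between the genotypes within a treatment, and 0, 2 and 4 of them had an unadjusted p under 0.05 with NTG, with crRNA-13 and with EGFP-KASH only, beside the 25.9%, 12.4% and 18.9% of all genes given above. DESeq2 with the factors called 1 of them, Nsdhl with EGFP-KASH only, at an adjusted p of 0.036. Nsdhl, a sterol dehydrogenase encoded on the X chromosome, had 21.7, 21.1, 28.4 and 33.1 CPM in C57BL/6J mice with EGFP-KASH only, and 15.1, 21.1 and 15.5 CPM in C9-BACexp mice. The highest C9-BACexp mouse stood level with the lowest C57BL/6J mouse. The log2 difference was −0.59 ± 0.18 (adjusted p = 0.0886 in edgeR; exact permutation p = 0.0857), and it stayed between −0.73 and −0.46 when any 1 of the 7 mice was left out. It was −0.34 ± 0.16 with crRNA-13 and −0.09 ± 0.14 with NTG.

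Cyp51, the demethylase that acts on lanosterol, had 28.0, 33.4, 42.2 and 31.7 CPM in C57BL/6J mice with EGFP-KASH only and 22.1, 27.1 and 28.2 CPM in C9-BACexp mice. The 2 genotypes met at their edges, and the difference was −0.38 ± 0.15 (adjusted p = 0.21), or −0.28 ± 0.18 without replicate 2. Hsd17b7, a reductase of sterol ketones, differed by −0.54 ± 0.21 (adjusted p = 0.21), and Fdft1, which makes squalene, by −0.26 ± 0.12 (adjusted p = 0.311). Sqle, the squalene epoxidase that sets the pace of this stretch, had 13.6 to 15.6 CPM in C57BL/6J and 12.2 to 13.9 CPM in C9-BACexp mice, both with EGFP-KASH only, a log2 difference of −0.13 ± 0.22. With NTG it differed by 0.02 ± 0.17 and with crRNA-13 by 0.32 ± 0.21. For Sqle with NTG, 2 standard errors left room for a log2 difference from −0.33 to 0.36. Lss, Dhcr7, Msmo1, Sc5d, Tm7sf2 and Ebp, which form the sterol rings, demethylate them or reduce and shift their double bonds, had differences of −0.45 to 0.29 with adjusted p of 0.345 or more.

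Of the 5 genes of the SREBP control system, Srebf1 had the smallest p with NTG. The gene (Entrez 20787; GRCm39 chr11:60089913-60113407, minus strand) had 10.5, 17.7, 16.1, 20.8 and 25.5 CPM in C57BL/6J mice with NTG, and 20.1 to 37.0 CPM with a median of 28.5 in the 6 C9-BACexp mice. Of the C57BL/6J mice, 2 reached into the C9-BACexp range. The log2 difference was 0.66 ± 0.13, a 1.58-fold higher level, at an adjusted p of 0.00689 in edgeR and an exact two-sided permutation p of 0.0238 over 462 splits. When any 1 of the 11 mice was left out the difference was 0.50 to 0.81 and the call remained. It ended without C9-BACexp NTG replicates 1 and 6 together, the 2 of their group with the most RNA of striatal neuron markers (0.55, adjusted p = 0.0514), a choice made after the data were seen, and without the factors (0.65, adjusted p = 0.479). Between the genotypes 15 of the 18 oligodendrocyte markers were called higher with NTG, as were 5 of 10 markers of striatal projection neurons (median log2 difference 1.98, all 10 above 0), and 4 of 14 astrocyte and 1 of 10 neuron markers were called lower. Their part in the result for Srebf1 was not tested. The gene differed by 0.32 ± 0.16 with EGFP-KASH only and 0.32 ± 0.15 with crRNA-13, and neither was called. Without C9-BACexp EGFP-KASH-only replicate 2, which had the lowest Srebf1 of its group (14.5 CPM, against 28.9 and 28.6), the difference with EGFP-KASH only was 0.64 ± 0.17 (adjusted p = 0.054).

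Insig1 (Entrez 231070; GRCm39 chr5:28276315-28283668, plus strand), which is itself an SREBP target, had 14.4, 11.5, 23.7 and 20.4 CPM in C57BL/6J mice with EGFP-KASH only. In the C9-BACexp mice it had 5.07, 12.4 and 14.5 CPM. The genotypes overlapped, and the lowest value was again replicate 2. The log2 difference was −0.78 ± 0.19, a level 0.583 times as high (adjusted p = 0.0337 in edgeR), while the exact permutation test gave p = 0.2. Without replicate 2 the difference was −0.34 (adjusted p = 0.493). The call for Insig1 also ended without C57BL/6J replicate 4 (−0.62, adjusted p = 0.144) or 5 (−0.69, adjusted p = 0.139), and without C9-BACexp NTG replicates 1 and 6 together (adjusted p = 0.0572). With crRNA-13 the log2 difference for Insig1 was 0.46 ± 0.18 and with NTG −0.06 ± 0.15. The differences with EGFP-KASH only and with crRNA-13 were 1.23 ± 0.26 apart on the log2 scale (unadjusted p = 1.4e-04, adjusted p = 0.0844), again a contrast chosen after the data were seen. Without replicate 2 this contrast of Insig1 was −0.77 ± 0.27 (adjusted p = 0.317). With all mice edgeR called 0 of the 31 (0.0781% of all genes), DESeq2 called 2 and limma 0. In edgeR 8 had an unadjusted p under 0.05, beside 12.4% of all genes.

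Scap stood below the fold limit in every treatment. Its level was 57 to 62.6 CPM under crRNA-13 in C57BL/6J mice and 66.0 to 80.4 CPM in C9-BACexp mice, with no overlap. The log2 difference was 0.25 ± 0.06 at an adjusted p of 0.0244, just under a 1.2-fold change, so it was not called. Insig2 had 11.9 to 19.9 CPM in C9-BACexp and 13.5 to 27.1 CPM in C57BL/6J mice with NTG (−0.37 ± 0.12, adjusted p = 0.11), and it was called there when p was adjusted within the comparison alone. Srebf2 differed by 0.25 ± 0.08 with NTG (adjusted p = 0.107), 0.15 ± 0.10 with crRNA-13 and 0.08 ± 0.10 with EGFP-KASH only. Stard4, which carries sterols between membranes, had 3.21 to 5.87 CPM in C57BL/6J mice and 2.38 to 3.36 CPM in C9-BACexp mice, both with EGFP-KASH only (−0.60 ± 0.25, adjusted p = 0.224; exact permutation p = 0.114).

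**Figure D2:**
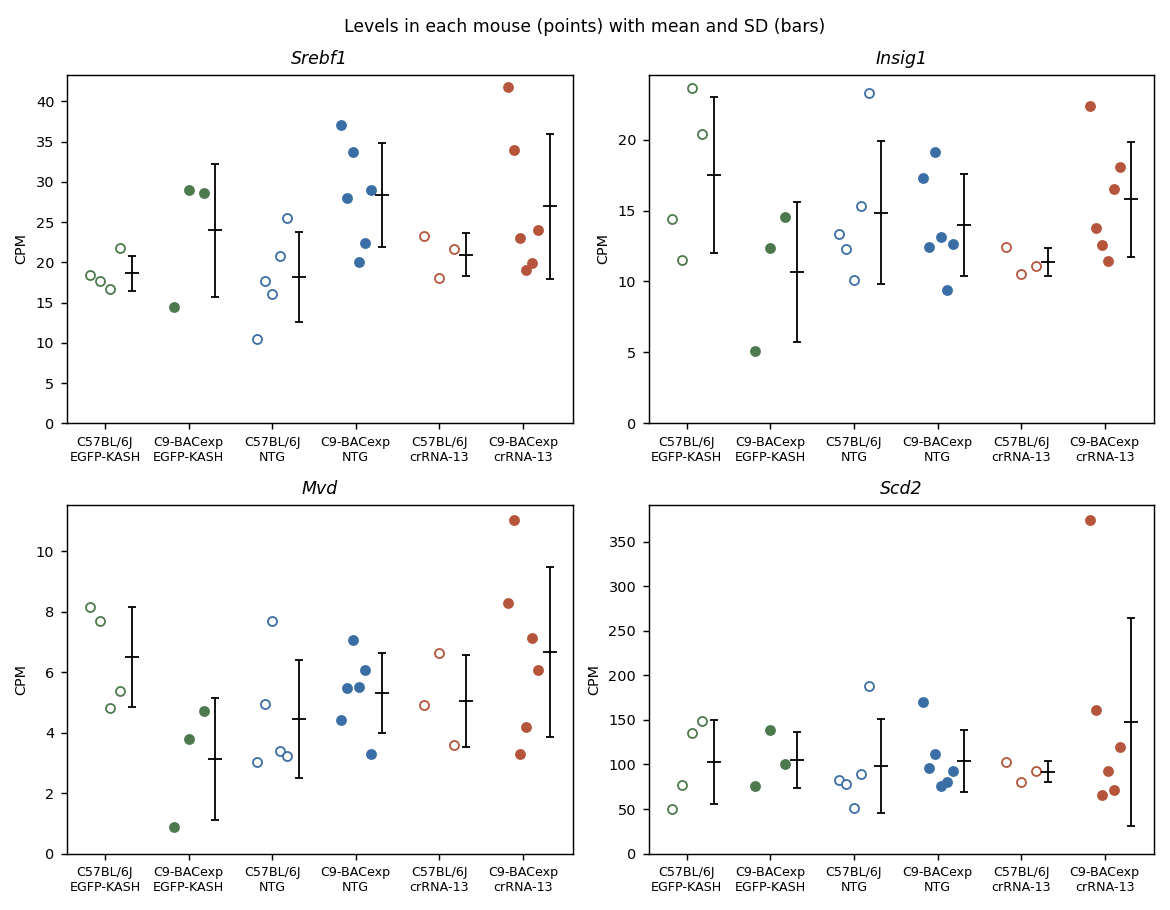
Level in CPM of the 4 called genes in each mouse, by genotype and treatment. Points are mice (filled, C9-BACexp; open, C57BL/6J), and bars show the mean and SD of each group of 3 to 6 mice. Mvd and Insig1 were lowest in 1 C9-BACexp mouse with EGFP-KASH only (0.879 and 5.07 CPM), and Scd2 was highest in 1 C9-BACexp mouse with crRNA-13 (374 CPM).

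The 7 genes of fatty acid synthesis make, elongate and desaturate long-chain fatty acids, which myelin also needs. Scd2 (Entrez 20250; GRCm39 chr19:44281613-44295303, plus strand), a stearoyl-CoA desaturase of the brain, had 103, 79.9 and 93.0 CPM in C57BL/6J mice with crRNA-13, and 65.5 to 374 CPM with a median of 106 in the 6 C9-BACexp mice. The C57BL/6J values lay inside the C9-BACexp range. The fitted log2 difference was 0.40 ± 0.10 (1.32-fold, adjusted p = 0.0291 in edgeR), and the exact permutation test of the log2 CPM gave p = 0.571. It rested on 1 mouse, C9-BACexp crRNA-13 replicate 1, without which it was 0.07 (adjusted p = 0.81). That mouse had the highest summed oligodendrocyte markers of all 27, at 5750 CPM. Between the genotypes with crRNA-13, 1 of the 18 oligodendrocyte markers was called higher and 3 of 14 astrocyte markers lower. Of 10 markers of striatal projection neurons 1 was called higher (median log2 difference 1.59, all 10 above 0). The part of these markers in the result was not tested. The call for Scd2 was lost, too, when replicate 2 of the same group was left out (0.30, adjusted p = 0.113), or C57BL/6J crRNA-13 replicate 2 (0.27, adjusted p = 0.242) or 5 (0.40, adjusted p = 0.0633). Neither NTG nor EGFP-KASH only gave a call for Scd2. With EGFP-KASH only its log2 difference was 0.13, the highest of the 7 genes. That value moved to 0.34 ± 0.13 (adjusted p = 0.201 in edgeR) once the C9-BACexp library that stood apart was left out. Scd1 and Scd2 are close paralogs that lie beside each other, so reads can be split between them by the quantification.

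Fasn, the fatty acid synthase, had 41.7 to 62.2 CPM in C57BL/6J and 57.2 to 72.5 CPM in C9-BACexp mice with NTG, and its log2 difference was 0.26 ± 0.08 (adjusted p = 0.0889). It was 0.28 ± 0.09 with crRNA-13 (adjusted p = 0.121) and −0.06 ± 0.10 with EGFP-KASH only. Scd1 differed by 0.39 ± 0.16, 0.36 ± 0.19 and −0.28 ± 0.20 with NTG, with crRNA-13 and with EGFP-KASH only, none of them called. The enzymes that feed and extend this pathway had small differences. Acaca, the carboxylase that commits acetyl-CoA to fatty acids, spanned 156 to 206 CPM over all 27 mice, a range of 1.32-fold, and differed by 0.08 ± 0.06, 0.06 ± 0.07 and 0.02 ± 0.07. Acly, which makes cytosolic acetyl-CoA, and Elovl6, an elongase, had differences of −0.15 to 0.04. Acacb, the form of the carboxylase that governs fatty acid oxidation, was low (0.599 to 4.74 CPM) and had wide intervals (−0.67 ± 0.35 with EGFP-KASH only, adjusted p = 0.354). Replicate 2 held the lowest value of Acacb, and without it the difference with EGFP-KASH only was 0.05 ± 0.33.

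Averaged over the 3 treatments, a contrast chosen after the data were seen, the genotype difference was called for 2 of the 31, where 9.73% of all genes were called, 4.94% higher and 4.79% lower. Srebf1 was higher by 0.43 ± 0.09 (adjusted p = 0.00147) and Nsdhl was lower, with a log2 difference of −0.34 ± 0.09 (adjusted p = 0.0162). Scap (0.19 ± 0.03, adjusted p = 6.3e-04), Scd2 (0.23 ± 0.05, adjusted p = 0.0053), Insig2 (−0.26 ± 0.08, adjusted p = 0.0303), Srebf2 (0.16 ± 0.05) and Fasn (0.16 ± 0.05) passed on p and not on fold. In all, 8 of the 31 had an unadjusted p under 0.05 in edgeR with the factors, beside 29.1% of all genes. Without C9-BACexp EGFP-KASH-only replicate 2, Scd2 (0.30 ± 0.06, adjusted p = 0.00319) was called too, and Insig2 (adjusted p = 0.104) and Srebf2 (adjusted p = 0.0502) no longer passed on p. Without the factors, edgeR called none of the 31 here, with 5 at an unadjusted p under 0.05, beside 17.1% of all genes. DESeq2 and limma without factors called none.

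The treatments were then compared within each genotype, to ask what crRNA-13 and NTG did to these genes. The comparisons of 1 genotype share their groups, and the values of each are given side by side. In C9-BACexp mice, crRNA-13 against NTG gave 0 calls among the 31 in edgeR, where 0.478% of all genes were called. Here 2 of the 31 had an unadjusted p under 0.05, beside 10.3% of all genes. These were Scd2 (0.27 ± 0.08, adjusted p = 0.0713) and Tm7sf2, a sterol reductase (−0.34 ± 0.13, adjusted p = 0.192). DESeq2 with the factors called 1, Scd2, and limma called 0. With crRNA-13, Scd2 stood at 374 CPM in replicate 1 and at 65.5 to 161 CPM in the other mice. As log2(CPM + 0.5) these other mice spanned 6.04 to 7.34, and the NTG mice 6.25 to 7.42. The fitted difference without replicate 1 is not given here. Srebf1 had 19.1 to 41.8 CPM with crRNA-13 and 20.1 to 37.0 CPM with NTG, and 2 standard errors left room for a log2 difference from −0.35 to 0.14.

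Against EGFP-KASH only, crRNA-13 gave 1 call in C9-BACexp mice, Mvd, which was higher, where 0.923% of all genes were called and 0.629% were called higher. The 6 mice with crRNA-13 had 3.28 to 11 CPM, median 6.60, and the 3 mice with EGFP-KASH only 0.879, 3.78 and 4.73 CPM, which overlap. The log2 difference was 1.27 ± 0.29 (adjusted p = 0.0214 in edgeR; exact permutation p = 0.0833, with 0.0119 the smallest possible). Without EGFP-KASH-only replicate 2 it was 0.57 (adjusted p = 0.413), and without crRNA-13 replicate 2 the call ended (1.09, adjusted p = 0.058). Insig1 differed by 0.64 ± 0.18 (adjusted p = 0.0622), and Hmgcs1, Fdft1, Fasn and Scd2 by 0.23 to 0.48 with an unadjusted p under 0.05. In all, 6 of the 31 had an unadjusted p under 0.05, beside 12.2% of all genes. Of the 31 genes 26 lay above 0, with a median of 0.17 beside 0.03 over all genes, of which 55% lay above 0. Without EGFP-KASH-only replicate 2 these were 21 of 31 and 0.06, beside 49.1% and −0.01 over all genes, and Insig1 differed by 0.20 ± 0.19, Scd2 by 0.02 ± 0.12 and Fasn by 0.14 ± 0.11.

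For C9-BACexp mice, NTG against EGFP-KASH only gave 0 calls among the 31 in edgeR (0.0322% of all genes) and 0 in DESeq2 and limma. Mvd (1.02 ± 0.29), Insig1 (0.47 ± 0.18) and Fdft1 (0.25 ± 0.11) had an unadjusted p under 0.05, as did 11.2% of all genes. Their adjusted p were 0.191, 0.33 and 0.436. Of the 31, 28 lay above 0, beside 58% of all genes. The same 3 mice with EGFP-KASH only, replicate 2 among them, entered both comparisons. Without replicate 2, Mvd differed by 0.30 ± 0.30 and Insig1 by 0.02 ± 0.19, and 22 of the 31 lay above 0, beside 52.3% of all genes. None of the 31 then had an unadjusted p under 0.05, beside 4.54% of all genes.

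In C57BL/6J mice, which lack the target, crRNA-13 against NTG gave 0 calls among the 31 (0% of all genes) in edgeR, with p adjusted within this comparison. The limits were the study's stricter ones for this comparison. At these limits the study itself, with limma-trend and its own adjustment over comparisons, reported differing genes. Of the 31, 1 had an unadjusted p under 0.05, Hsd17b7 (−0.53 ± 0.21, adjusted p = 0.305), beside 11.1% of all genes. Against EGFP-KASH only, crRNA-13 gave 0 (0.404% of all genes), with 5 at an unadjusted p under 0.05, all of them lower, beside 11.2% of all genes in either direction. These were Insig1 (−0.59 ± 0.19), Fdps (−0.53 ± 0.23), Hsd17b7 (−0.52 ± 0.21), Cyp51 (−0.49 ± 0.15) and Hmgcs1 (−0.46 ± 0.20), at adjusted p of 0.205 to 0.397. NTG against EGFP-KASH only gave 0 (0% of all genes). Here 4 had an unadjusted p under 0.05, all lower (Mvd, Scd1, Cyp51 and Fasn, −0.57 to −0.19), beside 7.86% of all genes in either direction. DESeq2 and limma with the factors called 0 of the 31 in all 3 comparisons.

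The genotype difference with crRNA-13 minus that with NTG gave 0 calls among the 31 in edgeR, DESeq2 and limma (0.00459% of all genes in edgeR). At an unadjusted p under 0.05 there were 3 of the 31, beside 10.4% of all genes. These were Hsd17b7 (0.64 ± 0.26), Hmgcs1 (0.63 ± 0.24) and Insig1 (0.52 ± 0.23), at adjusted p of 0.359 to 0.444.

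The levels were next compared between mice of the same group, each value taken as its deviation from its group's mean on the log2(CPM + 0.5) scale. All 31 genes were set against the mean levels of 4 marker lists, which makes 124 relations over 27 mice, with permutation p-values within groups adjusted over all 124. Scd2 followed the oligodendrocyte markers most closely (Pearson r = 0.962, Spearman rho = 0.952, both with an adjusted permutation p of 6.2e-04, resting on the smallest p that 100000 resamples can give). Without the 2 mice farthest from the median in these markers, C9-BACexp crRNA-13 replicate 1 and C57BL/6J NTG replicate 3, r was 0.949. Scd1 (r = 0.831, rho = 0.743), Srebf1 (0.756, 0.814), Insig1 (0.678, 0.692) and Ebp, a sterol isomerase (0.645, 0.72), also passed by both measures, with adjusted permutation p of 0.00273, 0.00165, 0.00434 and 0.0395 for r and 0.0118, 6.2e-04, 0.0118 and 0.0118 for rho. Without the same 2 mice their r was 0.76, 0.727, 0.599 and 0.605.

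Elovl6 (r = 0.699, rho = 0.554) and Hmgcs1 (0.683, 0.583) passed by r alone, with adjusted permutation p for rho of 0.1 and 0.0886. Mvd (r = 0.00623), Scap (0.0104) and Srebf2 (0.0539) had an r near 0, and Lss, which closes the sterol rings, had an r of −0.574 (adjusted permutation p = 0.0862). With the neuron markers, Scd1 passed by both measures (r = 0.848, rho = 0.875, adjusted permutation p of 6.2e-04 and 0.00124, r = 0.842 without the 2 farthest mice), and Scd2 by r alone (0.82; rho = 0.667, adjusted permutation p = 0.0565). None of the 31 passed with the astrocyte markers (r from −0.496 to 0.46) or with the markers of striatal projection neurons (−0.376 to 0.47). All these values share the libraries and their depth. The oligodendrocyte and neuron marker means also rose together in some groups, so the r with 1 list is not independent of the other. In C57BL/6J mice with EGFP-KASH only they ran from 3.78 to 5.92 and from 6.53 to 7.18, in the same order of mice. They did not share an order in C57BL/6J mice with crRNA-13 or C9-BACexp mice with EGFP-KASH only. Which of the 2 lists a gene follows was not tested.

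**Figure D3:**
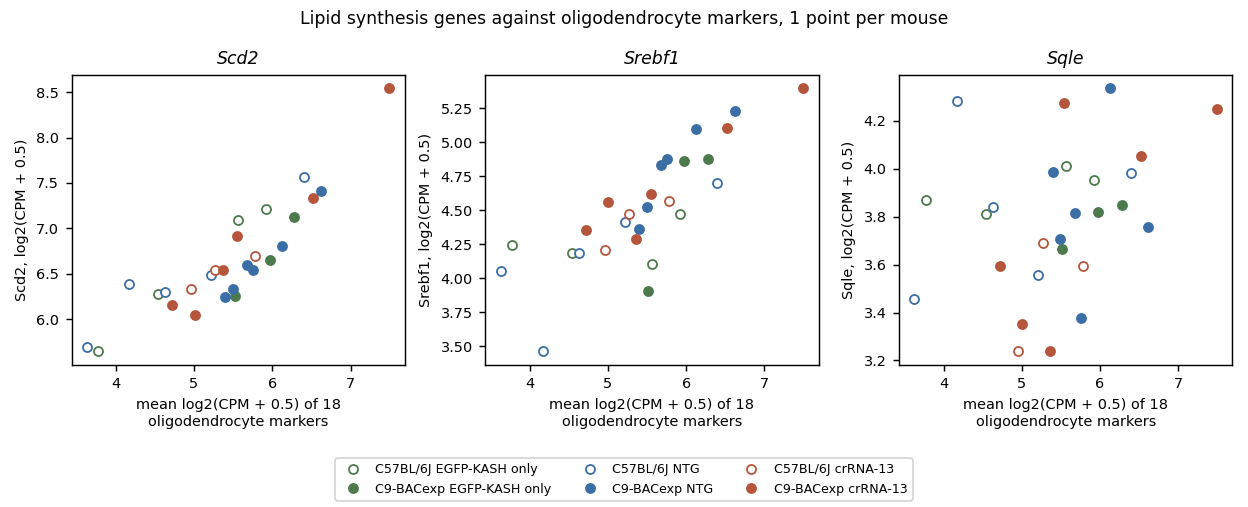
Level of Scd2, Srebf1 and Sqle against the mean level of 18 oligodendrocyte markers, both as log2(CPM + 0.5), with 1 point per mouse (filled, C9-BACexp; open, C57BL/6J). Scd2 and Srebf1 followed the markers within groups (r = 0.962 and 0.756), and Sqle less so (r = 0.433, adjusted permutation p = 0.216).

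**Figure D4:**
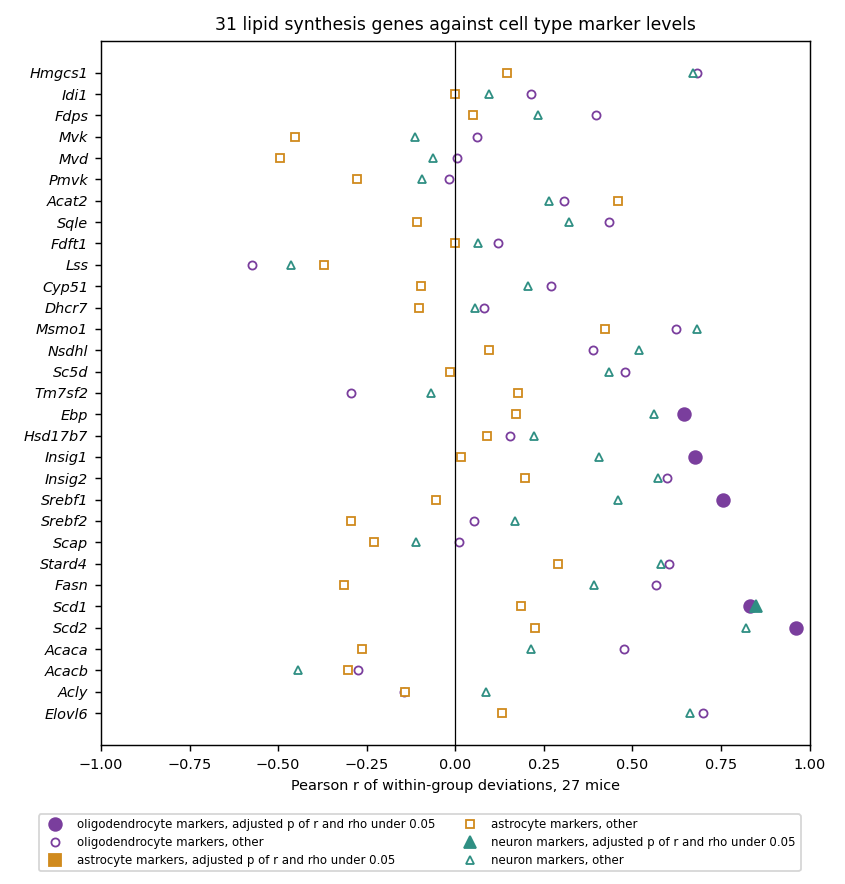
Pearson r between each of the 31 genes and the mean level of oligodendrocyte, astrocyte or neuron markers, over deviations from group means in 27 mice. Filled points had an adjusted permutation p under 0.05 for both r and rho; these were Scd2, Scd1, Srebf1, Insig1 and Ebp for oligodendrocyte markers and Scd1 for neuron markers.

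Among the 465 pairs of the 31 genes, 42 passed by both r and rho after adjustment over all pairs, 41 of them positive. The sterol enzymes held 16 of the 42, out of 153 pairs, with a median r of 0.193 over these 153 beside 0.183 over all 465. Those of Hmgcs1 with the smallest p joined it with Msmo1 (r = 0.83, rho = 0.826), with Sc5d (0.806, 0.725) and with Sqle (0.743, 0.807), each at an adjusted permutation p of 0.00465 for r. Without the 2 mice farthest in Hmgcs1 these were 0.788, 0.76 and 0.72. Outside the sterol enzymes, Scd1 went with Scd2 (0.891, 0.753), Srebf1 with Fasn (0.792, 0.789) and Insig2 with Elovl6 (0.74, 0.745), at adjusted permutation p of 0.00465, 0.0062 and 0.00465 for r. The 1 negative pair was Hmgcs1 and Acacb (−0.523, −0.581).

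Genes next to these in the pathway were counted with the same test between the genotypes within each treatment. Higher and lower here mean in C9-BACexp than in C57BL/6J mice, unless stated. Of 11 genes that process or turn over SREBPs or act with the sterol receptors, 1 was called higher and 1 lower with NTG (4.01% and 2.6% of all genes). With the other treatments edgeR called 0. There 3 with EGFP-KASH only and 0 with crRNA-13 had an unadjusted p under 0.05 in edgeR, beside 18.9% and 12.4% of all genes. DESeq2 called 1 and 0 of the 11 in these, and limma called 0. Fbxw7 is a ubiquitin ligase subunit that marks nuclear SREBPs and many other proteins for breakdown. Among mice with NTG it was lower in C9-BACexp than in C57BL/6J mice (log2 difference −0.48, adjusted p = 2.7e-04). Rxra, the partner of the liver X receptors, was higher there (0.52, adjusted p = 0.0316). In C9-BACexp mice Fbxw7 was higher by 0.28 with crRNA-13 than with NTG (adjusted p = 0.0137). It was the 1 call among the 11 in that comparison, where 0.478% of all genes were called.

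Of 25 tested genes of sterol uptake, transport and turnover, 2 were called higher with NTG, where 4.01% of all genes were, and none with crRNA-13 by edgeR, DESeq2 or limma, where 5 had an unadjusted p under 0.05, beside 12.4% of all genes. With EGFP-KASH only 1 was called higher and 1 lower, where 1.59% and 1.27% of all genes were. Cyp27a1, a sterol hydroxylase, rose by 1.38 with NTG (adjusted p = 1.7e-04), and Abca2, a lipid transporter abundant in oligodendrocytes, rose by 0.61 with NTG (adjusted p = 4.6e-04) and by 0.41 with EGFP-KASH only (adjusted p = 0.0399). Nceh1, a cholesterol ester hydrolase, was lower in C9-BACexp mice by 0.55 among mice with EGFP-KASH only (adjusted p = 0.0392).

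Of 28 other genes of fatty acid synthesis, elongation and activation, 5 were called lower with NTG, 1 with crRNA-13 and 2 with EGFP-KASH only, where 2.6%, 0.648% and 1.27% of all genes were called lower, and none was called higher. Acsl4, which activates long-chain polyunsaturated fatty acids, was called in all 3, with log2 differences of −0.46, −0.45 and −0.42. Acsl3 (−0.47), of the same enzyme family, and Hacd3 (−0.32), of the elongation cycle, were among the others with NTG, and Hsd17b12 (−0.91), a reductase of the elongation cycle, was the other with EGFP-KASH only. For these 3 lists, values without C9-BACexp EGFP-KASH-only replicate 2 are not given here. Their calls with EGFP-KASH only could therefore rest on that library. Without the factors, edgeR called no gene of these 3 lists and none of the 18 oligodendrocyte markers between the genotypes within a treatment.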

How the data were processed

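Nuclei sorted for EGFP-KASH from the motor cortex of 27 mice, 1 library each, were analysed as 6 groups of 3 to 6 taken from the labels, which give no sex or batch. The authors deposited expected counts per gene, made with Salmon 1.10.0 against spliced and unspliced mouse transcripts (GRCm39) with human C9ORF72 transcripts and EGFP-KASH added, and summarised with tximport in R 4.3.1 (lengthScaledTPM). Unspliced RNA therefore counts toward each gene. The expected counts were rounded to whole numbers, filtered with filterByExpr (count 10, total 15) and scaled by TMM. They were fitted with edgeR 4.0.16 (R 4.3.3) as 1 robust quasi-likelihood model of 6 groups with 4 factors estimated from residuals. The number of factors followed the study, whose own test was limma-trend with factors from the RUVseq package. Standard errors were computed as the size of the log2 difference divided by the square root of F, and intervals span 2 standard errors. Benjamini-Hochberg adjustment ran over all genes, jointly over 5 comparisons (the genotypes within each treatment, and crRNA-13 against each control in C9-BACexp mice) and within each other comparison. The p-values of the models with factors rest on the spread between mice that was left after the factors were fitted. Since the factors were estimated from the same 27 libraries, results are also given without them. DESeq2 1.42.0 and limma 3.58.1 were alternatives. Levels are CPM, and log2 values add 0.5 to CPM.

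The 31 genes, the marker lists and the other gene lists were chosen with earlier results of these data known. Full values were given for genes called in a comparison and for the one with the smallest p in each role, and shorter values, by role, for the rest of the 31. From each of the other lists up to 4 called genes with the smallest p were named, and 1 further list is not reported here. The fit was tested on simulated counts. Promoter letters came from RefSeq (GRCm38.p6), matched by symbol. Sqle, Fdps, Fdft1, Stard4, Scd1 and Scd2 had no entry.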

Additional observations from a re-analysis of the deposited data

Results flagged for a closer look

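Of 124 values of a gene in a group of 4 to 6 mice, 10 had a highest or lowest mouse set apart from the rest by Dixon's criterion (8.06%, where chance gives about 1 in 20). C9-BACexp crRNA-13 replicate 1 was apart for 3 genes, with 374 CPM of Scd2 (65.5 to 161 in the other mice), 22.8 CPM of Scd1 (3.24 to 8.54) and 162.3 CPM of Elovl6 (75.7 to 106). C57BL/6J NTG replicate 5 was apart for the same 3 genes, with 188.5 CPM of Scd2 (51.3 to 88.9), 10.14 CPM of Scd1 (3.89 to 5.34) and 136.9 CPM of Elovl6 (92.1 to 103). These mice had the highest summed oligodendrocyte markers of their groups, 5750 and 2590 CPM, and the part of the markers in the levels was not tested.

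The other 4 were single genes. Idi1 had 6.704 CPM in C9-BACexp crRNA-13 replicate 7 (2.26 to 3.83 in the others). Lss had 25.62 CPM in C9-BACexp crRNA-13 replicate 2 (37.8 to 44.8). Dhcr7 had 23.83 CPM in C57BL/6J NTG replicate 1 (13.8 to 16.3). Hsd17b7 had 5.51 CPM in C57BL/6J EGFP-KASH-only replicate 2 (10.2 to 10.8).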

How the results depend on the processing

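Without factors (edgeR, DESeq2 or limma-trend) 0 of the 31 genes were called in every comparison. With 2 factors the genotype calls under NTG (from 1), under crRNA-13 (from 1) and with EGFP-KASH only (from 2), and those for C9-BACexp crRNA-13 against EGFP-KASH only (from 1), were 0. With p adjusted within each comparison they were 2 with NTG, 0 with crRNA-13 and 0 for crRNA-13 against EGFP-KASH only, and with no filter 0 with crRNA-13. DESeq2 with factors called 1 for C9-BACexp crRNA-13 against NTG, 2 for crRNA-13 against EGFP-KASH only, and 1 and 2 for the genotype difference with EGFP-KASH only minus that with NTG and with crRNA-13. Replicate numbers did not pair the mice (48 pairs, r −0.203 to 0.356, 11 over 0.1), and a replicate block gave 0 genotype calls with EGFP-KASH only, 1 for C9-BACexp crRNA-13 against NTG and 0 for crRNA-13 against EGFP-KASH only. Without C9-BACexp NTG replicates 1 and 6, chosen after seeing the data like the contrasts of differences and the average over treatments, the calls were 0 with NTG, 1 with EGFP-KASH only and 1 for C9-BACexp crRNA-13 against NTG. Leaving out 1 mouse gave 1 to 2 calls with NTG, 0 to 3 with crRNA-13, 0 to 2 with EGFP-KASH only, 0 to 1 for C9-BACexp crRNA-13 against NTG, 0 to 3 for crRNA-13 against EGFP-KASH only, 0 to 2 for the EGFP-KASH-only difference minus that with crRNA-13, and 2 to 4 for the average. The other comparisons gave 0 throughout, apart from the DESeq2 call above. Direction was followed for 7 pairs of a gene and a comparison (Srebf1, Insig1, Scd2, Nsdhl, Stard4 and, in 2 comparisons, Mvd), and none of these reversed. The cause was not tested. Low counts limit Mvd, Idi1 and Acacb, which had as few as 22, 19 and 15 counts in a library.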
